A study of Mus musculus with 16 samples.

Results

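The EU labelling time course in Control mouse embryonic stem cells comprised 8 of the 16 libraries of the series, taken by their genotype label. All 8 came from C57BL/6 embryonic stem cells labelled Control in a Mettl14 conditional knockout (CKO) experiment, and the other 8 were CKO. Cells grew with FBS, LIF, CHIR99021 and PD0325901 and received 0.5 mM 5-ethynyl uridine (EU), 48 h after seeding, for 10, 20, 30 or 60 min before collection, with 2 libraries per EU time. The labels leave unsaid how the deletion is induced, whether Control cells carry the floxed allele and whether a line is 1 clone. Nothing in the labels ties the 2 libraries of a time to separate cultures. The p-values here therefore speak only for the variation among these libraries, possibly technical. Each EU time was its own pair of samples, so EU time cannot be told apart from the plate, the capture or the library preparation of that pair.

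EU enters RNA in place of uridine while it is transcribed, and its alkyne group lets labelled molecules be clicked to biotin and captured. After a short pulse the capture is dominated by transcripts still being made or just finished, including introns and unstable RNA. With a longer pulse, stable RNA keeps building up while RNA that is quickly spliced out or degraded approaches a plateau, so that its share of the captured pool falls. A share therefore reports on a gene relative to the rest of the pool, whereas a level per spike-in count reports on its amount.

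The files name genes by versioned Ensembl identifiers only, and the gene tables at hand matched 0 of them, so that genes are described here as groups and 4 are given by identifier. Gene symbols, RNA classes, pathways, the level of Mettl14 and stem cell markers were therefore not analysed here.

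Mouse counts ranged from 12883425 to 28502750 per library and were lowest in a 30 min library and highest in the 60 min pair. The 10 min pair held 13317010 and 14879856. Replicates at 10 min were the least alike (Pearson r of log2 CPM, across identifiers, 0.957, against 0.984 to 0.994 at the other times). In the labels the captured RNA appears as total RNA in one field and as nascent polyA RNA in another. In bulk RNA such as this, fewer cells of a type and less RNA per cell cannot be told apart.

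The amount of captured RNA rose at every step of the labelling. Mouse counts per ERCC count were 11.6 and 12.3 at 10 min, 45.5 and 45.2 at 20 min, 79.2 and 84.5 at 30 min, and 132.5 and 131.0 at 60 min. No library of a time overlapped with those of another time. The means were 11.9 ± 0.499, 45.4 ± 0.246, 81.8 ± 3.73 and 132 ± 1.05 (SD, n = 2 each). The gain per minute was 3.35 (SE 0.0393) from 10 to 20 min and 3.65 (SE 0.264) from 20 to 30 min, and it was 1.67 (SE 0.0914) from 30 to 60 min. An exact permutation test over the 4 times gave p = 0.00952, the smallest that groupings of 8 libraries into pairs allow. Between 2 times the smallest possible p is 0.333, and the gains per minute were not tested against each other. The ERCC RNA was added after capture, so cell number, recovery of RNA and yield of the capture also enter this ratio.

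**Figure D1:**
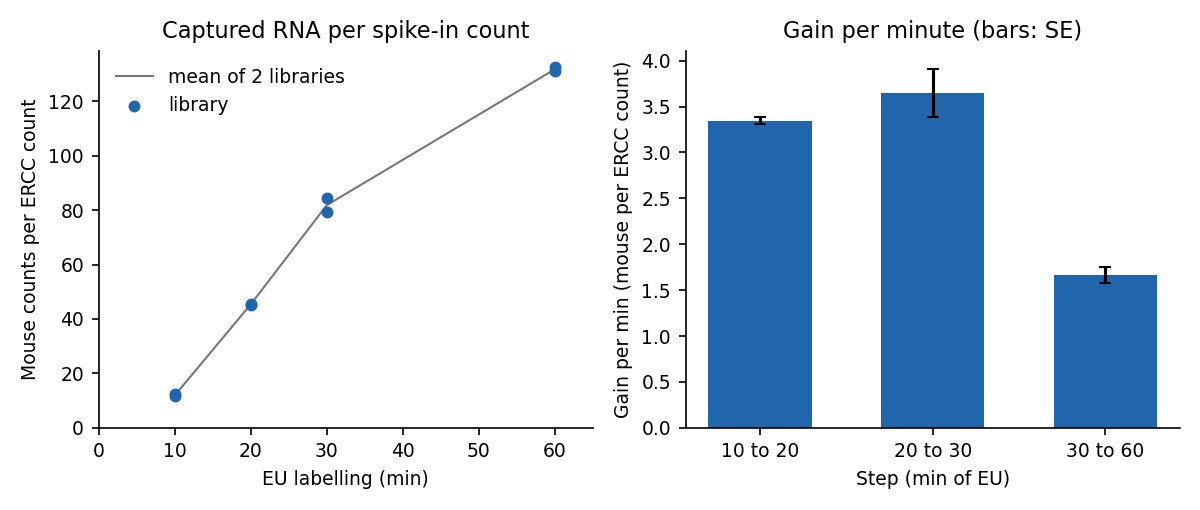
Left, mouse counts per ERCC count against EU time in min for the 8 Control libraries (points), with the mean of 2 joined by lines. Right, gain per minute in each step with its SE. The ratio rose from 11.9 to 132, and the gain per minute was lowest from 30 to 60 min.

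More kinds of RNA were seen after longer labelling. At least 1 count was found for 22029 and 22186 identifiers at 10 min, 25036 and 25319 at 20 min, 25454 and 26272 at 30 min, and 26800 and 26857 at 60 min. Depth differed between these libraries, so the number expected at 12000000 mouse counts was computed for each. It was 21886 and 21890 at 10 min, 24212 and 24427 at 20 min, 25290 and 25337 at 30 min, and 24667 and 24630 at 60 min. At equal depth the 10 min pair remained below all other libraries, and the 30 min pair, not the 60 min pair, was highest.

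Which identifiers gained or lost share between 10 and 60 min was tested on 19293 identifiers that passed a filter on low counts, holding 99.9% of the mouse counts. Of these, 5445 changed (28.2%), with 3110 gaining share (16.1%) and 2335 losing it (12.1%), at an adjusted p under 0.05 in edgeR's quasi-likelihood test with Benjamini-Hochberg adjustment. The median log2 fold change was 0.66 among the gains and -0.72 among the losses, and 769 gains and 947 losses reached 2-fold. Scaling to library totals in place of TMM turned the split to 2640 gains and 2942 losses, and a filter at a mean of 5 CPM gave 2539 and 2562. A fit of all 16 libraries called 2774. Scaling to ERCC totals, which asks about amount and not share, gave 17363 rises and 1 fall. The count depended on the 60 min libraries: without replicate 1 it was 3307 and without replicate 2 it was 3239.

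Abundant RNA changed share most often, in both directions. The identifiers tested were divided into 5 equal classes by mean abundance, with median levels of 0.585, 2.02, 8.79, 32.0 and 111 CPM (mouse counts scaled to a library total of 1e+06). From the least to the most abundant class, 4.15%, 14.1%, 25.4%, 39.2% and 58.3% were called. The direction also turned with abundance. In the most abundant class 1488 gained share and 761 lost it, whereas in the class around 2.02 CPM 141 gained and 403 lost. Counts per identifier also rise with the class, and their part in these percentages was not tested.

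Identifiers of version 1 made up more of the losses than of the identifiers tested. The suffix of an Ensembl identifier counts the revisions of its gene model, and version 1 marks a model that has not been revised since it entered the annotation. This grouping was chosen after the values were seen and is given as a description. Version 1 made up 4161 of the 19293 identifiers tested (21.6%), but 813 of the 2335 losses (34.8%) and 111 of the 3110 gains (3.57%). The median log2 fold change from 10 to 60 min was -0.80 for version 1 and 0.06 for later versions. With library totals these medians were -0.88 and -0.01, and per ERCC count they were 2.57 and 3.46. A scaling shifts all identifiers nearly alike, so the gap between the medians is nearly the same by construction. The loss was counted in 429 and 404 version 1 identifiers without 60 min replicate 1 and replicate 2. The 10 min libraries had fewer counts than the 60 min libraries, and the part of depth in this difference was not tested.

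Version 1 identifiers are mostly scarce, so the classes were read separately. In the middle class, around 8.79 CPM, 51.7% of version 1 identifiers lost share against 6.37% of later versions. In the next class, around 32.0 CPM, it was 54.2% against 12.4%. In the class around 2.02 CPM it was 22.2% against 3.57%, and in the most abundant class, with 42 version 1 identifiers, it was 23.8% against 19.7%. In the least abundant class it was 2.33% against 1.04%. The gap was thus wide in the 3 classes of intermediate abundance and narrower at both ends.

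Summed over all version 1 identifiers, the share of counts was lowest at 30 min and higher at 60 than at 10 min. It was 4.81% in both 10 min libraries, 5.09% in both 20 min libraries, 3.87% and 3.90% at 30 min, and 5.75% and 5.68% at 60 min. The sum weights abundant members: of the 10 most abundant identifiers, 3 of version 1 gained share and 1 lost it. From 10 to 60 min the median identifier and the summed counts therefore moved in opposite directions.

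**Figure D2:**
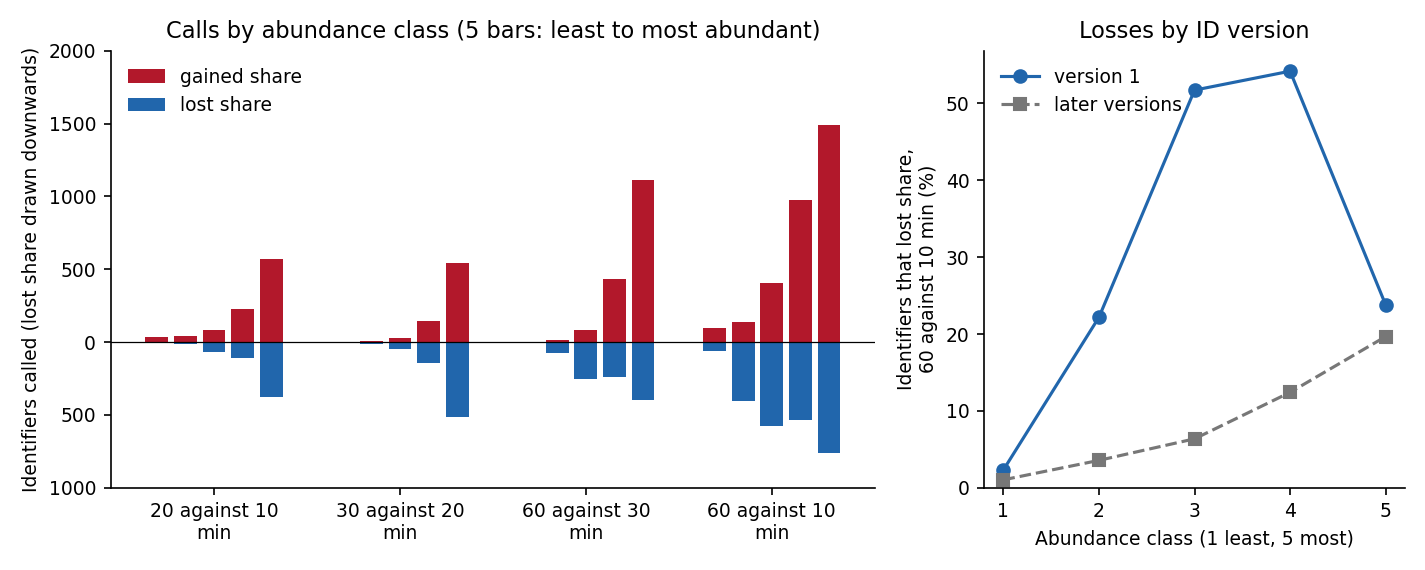
Left, identifiers called in each contrast, with gains of share above and losses below the zero line, in 5 bars from the least to the most abundant class. Right, the percentage of identifiers that lost share from 10 to 60 min by abundance class, for version 1 and later versions; the curves are farthest apart in classes 3 and 4, at 51.7% against 6.37% and 54.2% against 12.4%.

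Changes of share were spread over the 3 steps, and the last step held the most. From 10 to 20 min 1530 identifiers changed (7.93%), 960 gaining (4.98%) and 570 losing share (2.95%). From 20 to 30 min 1445 changed (7.49%), 728 gaining (3.77%) and 717 losing (3.72%). From 30 to 60 min, a step of 30 min and not 10, 2619 changed (13.6%), 1653 gaining (8.57%) and 966 losing (5.01%). With library totals the split in the last step was 1192 to 1311. A test of any change over the 4 times called 5901 identifiers (30.6%).

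These step counts rested heavily on individual libraries. From 10 to 20 min the count was 3883 and 3676 without 10 min replicate 1 and 2, and 484 and 568 without 20 min replicate 1 and 2. From 20 to 30 min it was 3094 and 3047 without 10 min replicate 1 and 2, which are not in that contrast but enter the estimate of the spread and the filter (21463 and 21425 identifiers were then tested). It was 576 and 677 without 20 min replicate 1 and 2, and 663 and 612 without 30 min replicate 1 and 2. From 30 to 60 min it was 4856 and 4745 without 10 min replicate 1 and 2, 1390 and 1425 without 30 min replicate 1 and 2, and 1421 and 1336 without 60 min replicate 1 and 2. The test of any change called 9592 and 9357 without 10 min replicate 1 and 2. Leaving out either 10 min library thus raised these 4 counts.

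Most identifiers were called in a single step. Of 4096 called in at least 1 step, 2806 were called in exactly 1, 1082 in 2 and 208 in all 3. The most frequent patterns were a gain from 30 to 60 min alone (859 identifiers, median log2 step 0.46), a loss from 30 to 60 min alone (660, median -0.74) and a gain from 10 to 20 min alone (458, median 0.63). A further 334 gained from 20 to 30 min alone and 284 lost from 10 to 20 min alone. Only 49 gained in all 3 steps and 4 lost in all 3. In all, 393 gained in 2 or 3 steps and lost in none, and 130 lost in 2 or 3 steps and gained in none.

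Calls over the whole course and calls in a step overlapped only in part. Of the 5445 identifiers called between 10 and 60 min, 2564 were called in no step and 2881 in at least 1. In the other direction, 1215 identifiers were called in a step but not between 10 and 60 min. Some identifiers turned: 427 lost share from 20 to 30 min and gained from 30 to 60 min, 239 of them not called between 10 and 60 min. The reverse was called for 152, 66 of them not called between 10 and 60 min.

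To follow the path between the ends, the 60 against 10 min test was repeated on the 4 libraries of those times alone, which left the 20 and 30 min libraries out of the choice. It called 2196 gains and 1524 losses among the identifiers tested. The gains stood at a median log2 change from 10 min of 0.26 at 20 min, 0.43 at 30 min and 0.68 at 60 min. The losses stood at -0.30, -0.45 and -0.71. At 20 min 88.5% of the gains and 90.9% of the losses had already moved in their final direction, and at 30 min 91.3% and 92.3% had. These figures share the 10 min libraries with the choice.

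The step from 20 to 30 min shares no library with the choice. There 76.6% of the gains rose, against 50.4% of all identifiers tested, and 68.0% of the losses fell, against 49.6% of all. By the test of that step, 440 of the 2196 gains were called higher and 78 lower, beside 3.77% of all identifiers called higher and 3.72% called lower. Of the 1524 losses, 223 were called lower and 44 higher. The test of that step takes its spread and filter from all 8 libraries, the 10 and 60 min pairs among them. These calls are therefore not independent of the choice. Calls in this step ran from 0.0777% of the least abundant class to 27.4% of the most abundant. The gains and losses were not matched to all identifiers in abundance. The mean log2 values ran in order through all 4 times for 55.3% of the gains and 44.7% of the losses. The rest departed from order at 20 or 30 min: at 30 min, 286 gains and 272 losses lay beyond their 60 min value, and 190 gains and 117 losses lay on the other side of their 10 min value.

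**Figure D3:**
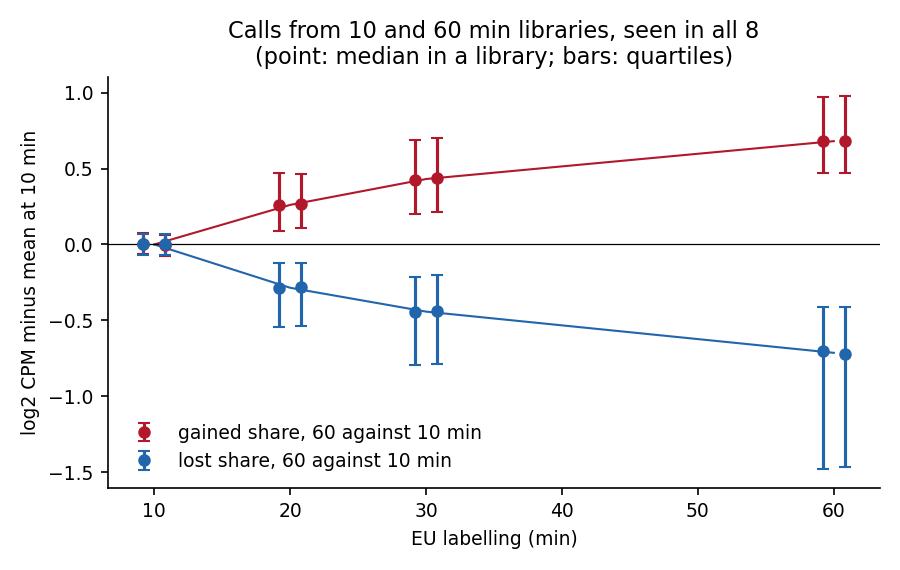
Median and quartiles over identifiers of log2 CPM relative to the mean at 10 min, in each of the 8 libraries, for 2196 gains (red) and 1524 losses (blue) called from the 10 and 60 min libraries. Both replicates of each time lie together, and the medians move away from 0 at 20, 30 and 60 min.

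The largest changes of share differed in form as well as direction. Identifiers were ranked by log2 fold change among those called, with a mean of at least 10 CPM and groups that did not overlap. The 15 largest gains ranged from 1.69 to 2.09 on the log2 scale and the 15 largest losses from -2.26 to -2.83. Of the gains 13 were called from 10 to 20 min, 3 from 20 to 30 min and 6 from 30 to 60 min. Of the losses 12 were called from 10 to 20 min, 2 from 20 to 30 min and all 15 from 30 to 60 min. Over all identifiers tested, 7.93%, 7.49% and 13.6% were called in the 3 steps. The first and last steps share libraries with the ranking, so the counts there partly follow from the choice. Calls in either direction are counted: from 20 to 30 min ENSMUSG00000061991.2 among the gains fell and ENSMUSG00000022160.18 among the losses rose. Version 1 accounted for 1 of the 15 gains and 14 of the 15 losses.

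ENSMUSG00000026675.12, the largest log2 gain among the ranked identifiers, rose early and then held its share. It measured 4.66 and 4.91 CPM at 10 min, 10.1 and 10.7 at 20 min, 21.3 and 17.8 at 30 min, and 17.7 and 20.9 at 60 min. The 30 and 60 min libraries overlapped, and all stood above the 20 and 10 min libraries. The log2 fold change from 10 to 60 min was 2.09 (SE 0.22, edgeR adjusted p = 4.6e-06). The steps were 1.15, 0.89 and 0.05, and the first 2 were called.

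ENSMUSG00000061991.2 gained with a break at 30 min. It measured 19.4 and 31.0 CPM at 10 min, 38.7 and 42.3 at 20 min, 19.7 and 21.7 at 30 min, and 87.6 and 98.6 at 60 min. The 30 min values lay within the range of the 10 min pair, while both 60 min values were above all others. The log2 fold change from 10 to 60 min was 1.96 (SE 0.17, edgeR adjusted p = 7.4e-07).

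ENSMUSG00000022160.18 had the largest log2 loss among the ranked identifiers and alternated between times. It measured 463 and 442 CPM at 10 min, 98.2 and 112 at 20 min, 381 and 399 at 30 min, and 57.8 and 63.1 at 60 min. The 10 and 30 min pairs were high and the 20 and 60 min pairs low, with no overlap. The log2 fold change from 10 to 60 min was -2.83 (SE 0.07, edgeR adjusted p = 1.9e-12), and that from 20 to 30 min was 1.87.

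ENSMUSG00000105979.1 fell in an early and a late step. It measured 36.9 and 34.2 CPM at 10 min, 19.4 and 19.9 at 20 min, 21.0 and 20.0 at 30 min, and 4.75 and 5.19 at 60 min. The 20 and 30 min pairs were close together, at a level between the 10 min and the 60 min pairs. The log2 fold change from 10 to 60 min was -2.76 (SE 0.17, edgeR adjusted p = 3.0e-08), and that from 20 to 30 min was 0.04.

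Per spike-in count, both the largest gains and the largest losses were higher at 60 than at 10 min, but the largest losses had fallen since 30 min. ENSMUSG00000026675.12 and ENSMUSG00000061991.2 were 44.6-fold and 40.6-fold higher at 60 than at 10 min per ERCC count. ENSMUSG00000022160.18 and ENSMUSG00000105979.1 were 1.48-fold and 1.55-fold higher. Over the 15 largest gains the fold per ERCC count ran from 34.0 to 44.6 and over the 15 largest losses from 1.48 to 2.20. No identifier among these 30 was lower at 60 than at 10 min in amount. Each of the 15 largest losses had a lower mean level at 60 than at 30 min. They were ranked on their fall from 10 to 60 min, so low 60 min values partly follow from the choice. Among all 1535 losses of share at 10 CPM or more, 252 (16.4%) had a lower mean level at 60 than at 30 min.

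The single most abundant identifier held its smallest share of the captured pool at 60 min. The most abundant identifier took 4.67% and 4.85% of mouse counts at 10 min, 4.50% and 4.34% at 20 min, 6.47% and 6.49% at 30 min, and 2.28% and 2.35% at 60 min. The share was highest at 30 min and lowest at 60 min, with no overlap between those pairs and the rest. Its log2 fold change from 10 to 60 min was -0.97 (SE 0.02). Per 1000 ERCC counts it averaged 567 at 10 min, 2006 at 20 min, 5305 at 30 min and 3048 at 60 min, so that its amount per spike-in also peaked at 30 min. The top 10 identifiers of each library took 10.4% and 10.5% at 10 min, 11.0% and 10.7% at 20 min, 11.6% in both 30 min libraries, and 8.68% and 8.77% at 60 min. The top 1000 took 54.0% in both 10 min libraries and 53.1% and 53.3% at 60 min.

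The other abundant identifiers took several forms. The identifier of rank 2 took 1.66% at 10 min and 1.69% at 20 min, a step that was not called, and then fell to 1.28% and 0.956%. Its log2 fold change from 10 to 60 min was -0.73. The identifier of rank 7 took 0.481% at 10 min and 0.461% at 60 min, with a log2 fold change of 0.01 that was not called. In between it took 0.521% at 20 min and 0.438% at 30 min, and each of its steps was called. Those of rank 4, 6 and 10 gained 0.81, 1.16 and 1.00 on the log2 scale from 10 to 60 min and were lowest at 30 min. The identifier of rank 4, for example, measured 5947 and 5949 CPM at 10 min, 7345 and 7056 at 20 min, 2310 and 2399 at 30 min, and 9924 and 9864 at 60 min. The identifier of rank 9 was highest at 30 min, with 3099 and 3206, 3559 and 3293, 6283 and 6319, and 1906 and 1827 CPM in the same order of times.

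The 30 min pair differed from the mean of 20 and 60 min for a limited set of RNA. A contrast of 30 min against the mean of 20 and 60 min, added after the values were seen, called 1642 identifiers (8.51%), 647 higher (3.35%) and 995 lower (5.16%). A contrast of 20 min against the mean of 10 and 30 min called 540 (2.80%), 377 higher (1.95%) and 163 lower (0.845%). The 30 min time is not midway between 20 and 60 min, so a change confined to the last step can also be called. The 2 contrasts cover unlike spans of time, so their counts do not show which time departs more. Scaling to library totals turned the 30 min split to 876 higher and 784 lower, and ERCC totals gave 1310 higher and 402 lower, so the direction of the bulk is not fixed by these data. The 30 min count was 3604 and 3536 without 10 min replicate 1 and 2, and 692 and 668 without 30 min replicate 1 and 2. It was 1062 without 20 min replicate 1 and 1081 without 60 min replicate 2.

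Departures of at least 2-fold from the mean of 20 and 60 min were few at 10 CPM or more. On this measure 27 identifiers were low at 30 min and 21 were high. An identifier that was level from 20 to 30 min and fell later also counts as high. ENSMUSG00000105979.1, a member of the high set, measured 19.4 and 19.9 CPM at 20 min and 21.0 and 20.0 at 30 min. The 27 low identifiers took 2.22% and 2.25% of mouse counts at 10 min, 2.66% and 2.65% at 20 min, 0.887% and 0.913% at 30 min, and 3.74% at 60 min in both libraries. The 30 min values were the lowest of the course by a wide margin, and both replicates shared the dip. Per ERCC count the 27 together measured 1.21 and 1.20 at 20 min, 0.702 and 0.771 at 30 min, and 4.95 and 4.90 at 60 min, so that the 30 min level was below the 20 min level in amount too.

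The 21 high identifiers took 0.498% and 0.509% at 10 min, 0.483% and 0.466% at 20 min, 1.13% and 1.14% at 30 min, and 0.301% and 0.280% at 60 min. Both sets were chosen on the 20, 30 and 60 min libraries, so the values there are a description, and the 10 min libraries were not used. At 10 min the summed low set stood between its 30 and 20 min levels, and the summed high set stood just above its 20 min level. The median members differed from the sums, on log2 CPM relative to their mean at 20 and 60 min. The low set had medians of -0.07 and 0.01 at 10 min and -0.02 and -0.07 at 20 min. The high set had 0.56 and 0.54 at 10 min and 0.28 and 0.35 at 20 min. Of the low set 10 were version 1 and 6 were among the 100 most abundant identifiers; of the high set 11 were version 1 and 2 were among the 100 most abundant. Version 1 made up 375 of the 9287 identifiers at 10 CPM or more (4.04%), from which both sets were drawn.

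**Figure D4:**
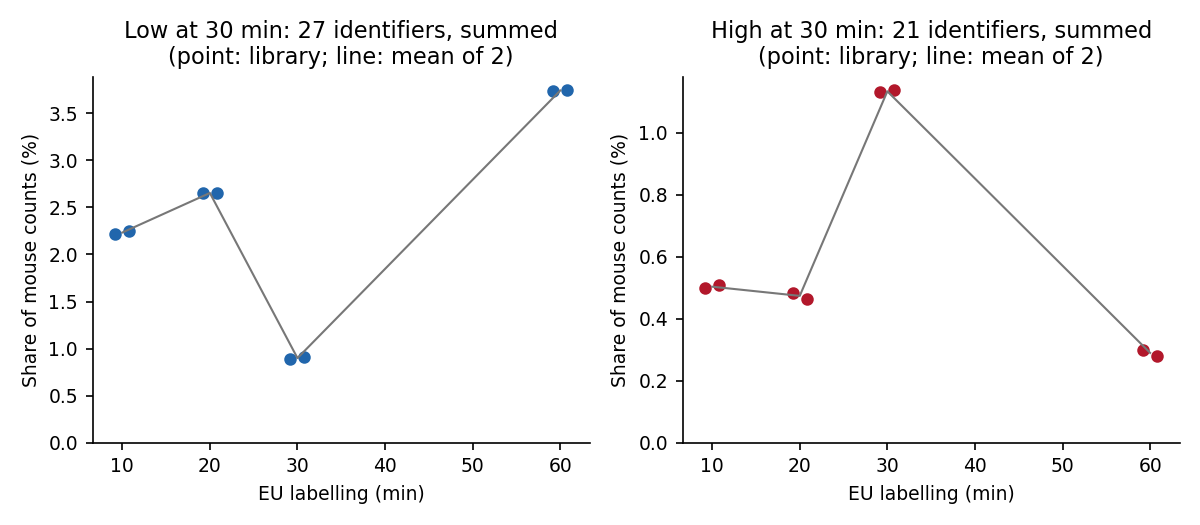
Summed share of mouse counts, in percent, against EU time for the 27 identifiers low at 30 min (left) and the 21 high at 30 min (right), each point a library and the line the mean of 2. The 30 min points are 0.887% and 0.913% on the left and 1.13% and 1.14% on the right.

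Some identifiers alternated with time, among them members of the sets above. A gain, a loss and a gain in successive steps were called for 61 of the 19293 identifiers tested. Together these took 5.24% and 5.28% of mouse counts at 10 min, 6.26% and 6.12% at 20 min, 3.88% and 3.87% at 30 min, and 7.34% and 7.40% at 60 min. The reverse pattern was called for 23 identifiers, the most abundant identifier and ENSMUSG00000022160.18 among them. These took 5.13% and 5.30% at 10 min, 4.81% and 4.66% at 20 min, 6.97% and 6.99% at 30 min, and 2.58% and 2.64% at 60 min. Both sets were chosen by their calls in these same libraries, so the alternation of the sums follows from the choice and is a description.

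Each time was also set against the other 3 without a model. Among 9287 identifiers at 10 CPM or more, both libraries of a time lay below all 6 others for 1562 at 10 min, 546 at 20 min, 1001 at 30 min and 1602 at 60 min. Both lay above all 6 others for 1516, 358, 997 and 1895. The 20 min pair was the least often at an end of the range. At a margin of 2-fold, 13 were lowest and 4 highest at 30 min, whereas 36 were lowest and 3 highest at 60 min.

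Accumulation per ERCC count was followed for the same 9287 identifiers. The median identifier was 11.0-fold higher at 60 than at 10 min (quartiles 9.06 and 13.9), beside a 6-fold increase in labelling time. It had reached 9.07% of its 60 min level at 10 min, 33.7% at 20 min and 61.8% at 30 min. The level rose at every step for 8907 identifiers (95.9%). Only 290 identifiers (3.12%) increased by less than 6-fold, and 288 of them were among those that lost share. All mouse counts together rose from 11.9 to 132 per ERCC count. A rise of less than 6-fold is thus itself a loss of share, and the overlap largely restates that call.

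Identifiers that gained or lost share differed in the part of their 60 min level reached earlier. Their choice on the 10 and 60 min libraries fixes this at the ends. The 60 min level divides every percentage, so the choice also enters the 20 and 30 min values, and the difference there is partly built in. For the 2695 gains at 10 CPM or more, the median fold was 15.9 and the level had reached 6.28%, 27.1% and 55.2% of the 60 min level at 10, 20 and 30 min. For the 1535 losses the fold was 7.52 and the level had reached 13.3%, 43.2% and 75.2%. The 5057 identifiers not called had a median fold of 10.5.

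**Figure D5:**
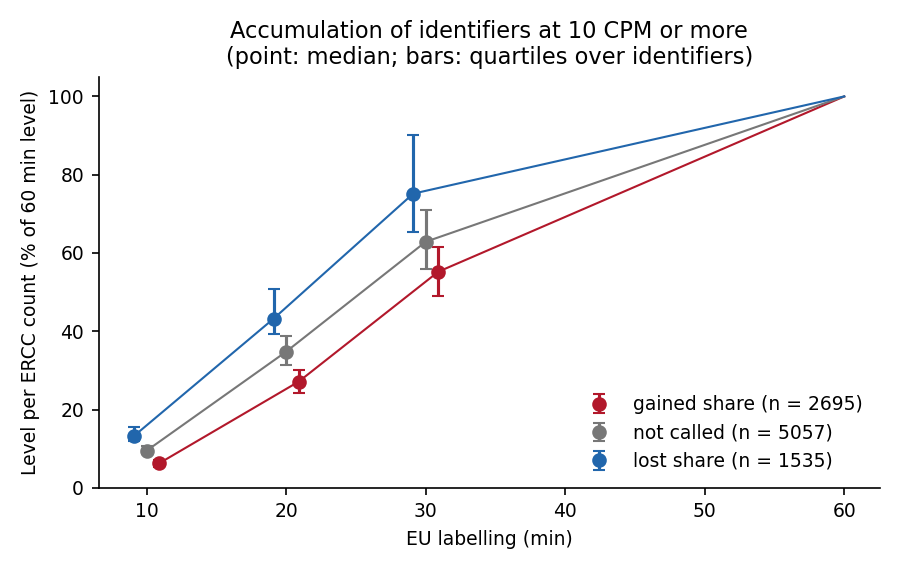
Level per ERCC count as a percentage of the 60 min level, against EU time in min, for identifiers at 10 CPM or more that gained share, were not called or lost share from 10 to 60 min; points are medians and bars quartiles over identifiers. At 30 min the medians are 55.2% for gains and 75.2% for losses. Both groups were chosen on the 10 and 60 min libraries, which partly builds in this gap.

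The pace of accumulation slowed in the last step for most RNA. The median identifier gained 2.45% of its 60 min level per minute from 10 to 20 min, 2.85% from 20 to 30 min and 1.27% from 30 to 60 min. The last step was slower per minute than the second for 8306 of the 9287 (89.4%). For gains of share the 3 medians were 2.08%, 2.78% and 1.49% per minute, and for losses they were 3.01%, 3.15% and 0.828%. Gains and losses were chosen on the 10 and 60 min libraries, and the 60 min level is the divisor. The difference between the 2 groups is therefore partly built in. All identifiers of a library share its ERCC total, so that the capture yield of each pair enters every rate alike.

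A fall in amount was rare and concentrated in the last step. From 30 to 60 min 315 identifiers had a lower mean level per ERCC count, 252 of them among those that lost share, and for 188 the 2 pairs did not overlap. The losses of share were called on the same 60 min libraries, so their part in this count partly follows from the choice. From 20 to 30 min 64 fell, 37 of them without overlap, and from 10 to 20 min 2 fell. None of the 9287 was lower at 60 than at 10 min.

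Whether the share changes were particular to Control was tested as the difference between CKO and Control in the change from 10 to 60 min, on the 12 libraries of both genotypes at 10, 20 and 60 min. The 30 min libraries were left out because earlier results of these data showed the CKO pair at that time to stand apart. The difference was called for 1151 of 20204 identifiers (5.70%), with 674 higher and 477 lower in CKO. Of the Control gains 351 of 3108 tested in both fits differed, and of the Control losses 255 of 2330. Without Control 60 min replicate 1 and 2 the count was 392 and 407. It was 690 in a fit of all 16 libraries and 318 with the 8 libraries at 10 and 60 min alone. Among the 30 largest gains and losses 4 differed, and a missed threshold does not show that the other 26 moved alike. The Control gains and losses, and the 30 largest, were chosen on Control libraries that also enter this test. That choice favours a difference, so the counts among them are a description.

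The largest ranked log2 loss in Control was one of these 4. ENSMUSG00000022160.18 measured 73.6 and 67.3 CPM at 10 min and 64.8 and 60.1 CPM at 60 min in CKO, against 463 and 442 and then 57.8 and 63.1 CPM in Control. The change from 10 to 60 min differed by 2.74 on the log2 scale (SE 0.13, edgeR adjusted p = 4.8e-09). The 2 genotypes were close at 60 min and far apart at 10 min. For ENSMUSG00000026675.12 the difference was -1.15 (edgeR adjusted p = 0.0319). For ENSMUSG00000061991.2 it was 0.98 (edgeR adjusted p = 0.0571), and for ENSMUSG00000105979.1 it was 0.51 (edgeR adjusted p = 0.376). Neither was called. All 4 were picked on Control libraries that enter this test, so these p-values are not independent of the choice.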

How the data were processed

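RNA-seq of EU-labelled, captured RNA was analysed for the 8 Control libraries, and for 12 or 16 libraries where CKO is compared. The authors deposited raw, unnormalized counts for each identifier. The submitters' processing notes list CASAVA, Trimmomatic 0.38, HISAT2 2.1.0, HTSeq and the mm10 build. The sources used here state neither annotation release nor strand setting nor feature counted, so overlapping, antisense and near-identical genes have uncertain counts. Per the labels, every captured sample received 0.01 µl of ERCC RNA and then went into a SMARTer stranded total RNA kit (v2). Each file holds 54446 mouse identifiers and 92 ERCC species.

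Counts were tested with edgeR 4.0.16 in R 4.3.3 (robust quasi-likelihood fit of 4 group means, TMM on mouse counts, filterByExpr by group), with a Benjamini-Hochberg threshold of 0.05 over all 19293 identifiers tested, after tests on simulated data. Gained or lost share means past that threshold. Paths were computed on log2(CPM + 0.5). Accumulation is the mean of 2 libraries of counts per ERCC count and has no test per identifier. Identifiers to be ranked needed a mean of at least 10 CPM, a called change and groups that did not overlap; the 15 largest in each direction were taken, and 2 in each direction printed. Parts of the rule that need symbols, and 30 gene lists, were not run; the reduced rule was settled after the files had been seen. Members and lists were chosen with earlier results of these data known. Replicate numbers did not pair the libraries: deviations of the same number correlated at -0.009 to 0.0195 over 6 pairs of EU times. No library pair held identical values, and replicates differed by more than counting noise (chi-square per degree of freedom 3.55 to 12.0). Alternatives were scaling (median-of-ratios, library totals, ERCC totals), filter, DESeq2 1.42.0, a replicate block, other sets of libraries and each library left out.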

Additional observations from a re-analysis of the deposited data

Results flagged for a closer look

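The change in share from 10 to 60 min differed between CKO and Control for 1151 of 20204 identifiers, by edgeR's test of the difference itself at an adjusted p under 0.05, and 4230 had an unadjusted p under 0.05. Of the 1151, 674 were higher and 477 lower in CKO. The count was 392 without Control 60 min replicate 1 and 407 without replicate 2. It was 690 with all 16 libraries and 318 with the 8 libraries at 10 and 60 min alone.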

How the results depend on the processing

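Counts are of identifiers called at an adjusted p under 0.05, in the order 60 against 10 min, 20 against 10 min, 30 against 20 min, 60 against 30 min. ERCC totals gave 17364, 15551, 10701 and 8900, with 16701 for any change and 1 version 1 loss; the 2 printed losses then turned to rises of 0.57 for ENSMUSG00000022160.18 and 0.63 for ENSMUSG00000105979.1, since nearly all amounts rose. A fit of all 16 libraries gave 2774, 295, 383 and 866, with 2843 for any change, 348 version 1 losses, 468 at 30 min against 20 and 60 min, and 690 for CKO against Control. The 4 libraries of a contrast alone gave 362, 2455 and 4972 for the 3 steps and 525 version 1 losses, and the 8 libraries at 10 and 60 min gave 318 for CKO against Control. Dropping the 30 min libraries, a choice made after seeing the data, gave 1005 for 20 against 10 min. A filter at a mean of 5 CPM left 443 version 1 losses because fewer were tested, and it made the split of 60 against 10 min 2539 gains and 2562 losses and that of 60 against 30 min 1377 and 1374. EU time as 1 log2 covariate called 3599 for any change. The cause of the other shifts was not tested. Leaving out 1 Control library at a time gave ranges of 3239 to 7486, 484 to 3883, 576 to 3094 and 1336 to 4856, of 4028 to 9592 for any change, 404 to 1110 for version 1 losses, 668 to 3604 for 30 min against 20 and 60 min, and 392 to 1272 for CKO against Control. The replicate block, which has no basis in the labels, gave 5594 for any change and 928 for CKO against Control and moved no count by over 1.5 times; 6 of 8 libraries correlated best with their own number. The median accumulation fold stayed between 10.7 and 11.5 in the 6 alternatives run. Outside ERCC totals, the 4 printed identifiers kept direction and call in the alternatives run, with ENSMUSG00000061991.2 from 1.67 to 2.34. Alternatives for gene lists were not run, as no list could be matched.

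With 2 libraries per time, 10 min libraries the least alike and 60 min libraries the deepest, a missed call is weak information, most of all below about 2.02 CPM.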
